A study of Mus musculus with 16 samples.

Results

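The 8 genes below were followed as a measure of how far the liver had left its fetal program. They are Afp, H19, Igf2, Dlk1, Gpc3, Lin28b, Igf2bp3 and Zhx2. The genes were chosen by symbol, as hepatic genes silenced around birth together with the repressor Zhx2. Of the 8, 7 had a row among the 18209 rows with a gene identifier, and 6 of the 7 passed the filter on low values that left 15781 genes for testing. Dlk1 did not pass, and Lin28b had no row and is not analysed here.

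Alpha-fetoprotein, H19, insulin-like growth factor 2 and the glypican GPC3 are made in large amounts by the fetal liver. They are shut down in hepatocytes in the weeks after birth. ZHX2, a repressor of Afp and H19, and ZBTB20, a repressor of Afp, are among the factors that hold some of them low. H19 and Igf2 are imprinted neighbours: they share enhancers, H19 is transcribed from the maternal and Igf2 from the paternal chromosome, and an insulator between them decides which one the enhancers reach. Several of these genes come back in regenerating and malignant liver, which is why Afp and Gpc3 serve as clinical markers.

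Total RNA of whole livers was sequenced from 16 mice labelled as male and 20 days old, 4 in each of 4 genotypes. All carried floxed alleles of Trsp, the gene of the selenocysteine tRNA that every selenoprotein needs. Trsp fl/fl mice are called controls below, and in Trsp fl/fl::AlbCre mice, called Trsp knockouts, Cre under the albumin promoter deletes the gene in hepatocytes and leaves it in other liver cells. The genotype called KEAP1 mutant is Keap1 C226S&C613S homo::Trsp fl/fl; it is homozygous for serine in place of a pair of cysteines through which KEAP1, the adaptor that marks the transcription factor NRF2 for degradation, senses oxidative stress. The double mutant is Keap1 C226S&C613S homo::Trsp fl/fl::AlbCre. The KEAP1 change is in the germline and so not limited to hepatocytes. Nothing in the labels says that replicates of a genotype came from separate litters, so p-values measure the spread between these mice.

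Reads recovered from the deposited values numbered 11386705 to 19164124 per library. All 8 hepatocyte markers were detected, with a summed normalized count between 1105072 and 2402666. Double mutant replicate 1 stood apart: it held 28799 Xist reads against 22 to 50 elsewhere and 2 Y-linked reads against 1830 to 3066, which goes against its male label, with the lowest hepatocyte sum and the highest erythroid sum (99649). Control replicate 3 held the highest sums of stellate and fibroblast markers (32791, against 16124 to 23290 elsewhere) and of mesothelial markers (935, against 136 to 469). In whole liver, fewer cells of a type and less RNA per cell cannot be told apart.

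The sequences below are windows that were searched for the letters named here: the start of Afp and one of the annotated Igf2 starts. The expression values are not read from them. The windows are RefSeq sequences on GRCm38.p6, 5′ to 3′ along the gene, covering 250 bases before and 50 after the annotated start. The reference table held windows for 6 of the 8 genes, without H19 and Zhx2. The Afp window lies at chr5:90490464-90490763 on the plus strand, with the TATA box letters TATAAA and the HNF1 half-site letters GTTAAT in capitals. The TATAAA letters begin at -7 from the annotated start. The Igf2 window lies at chr7:142661222-142661521 on the minus strand, with a match to TGACNNNGC, the core of the antioxidant response element that NRF2 binds, in capitals.
Afp: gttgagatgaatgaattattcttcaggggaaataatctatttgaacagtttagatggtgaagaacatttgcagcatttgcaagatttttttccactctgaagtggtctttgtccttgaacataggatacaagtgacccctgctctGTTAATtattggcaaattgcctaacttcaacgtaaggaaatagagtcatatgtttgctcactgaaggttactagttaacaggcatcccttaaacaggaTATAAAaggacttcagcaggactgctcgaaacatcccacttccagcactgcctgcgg
Igf2: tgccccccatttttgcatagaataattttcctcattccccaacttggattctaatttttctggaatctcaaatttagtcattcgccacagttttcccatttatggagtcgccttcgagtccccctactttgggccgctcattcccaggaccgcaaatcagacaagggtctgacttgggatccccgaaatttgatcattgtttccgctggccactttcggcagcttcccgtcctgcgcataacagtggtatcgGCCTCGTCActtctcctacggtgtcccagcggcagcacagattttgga
Both strands were searched. TATAAA occurred in 13.6% of all 32851 promoter windows, GTTAAT in 7.1% and TGACNNNGC in 12.4%; a match describes letters and is no evidence of binding. The other 3 Igf2 windows held no TGACNNNGC, nor did the windows of Afp, Dlk1, Gpc3, Igf2bp3 and Lin28b. GGGCGG, the core of the GC box bound by SP1, occurred 4 times in the Gpc3 window, where 35.7% of all windows held it.

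H19 is also the precursor of miR-675, a brake on placental growth, whose mature forms lie at chr7:142577112-142577133 (5p) and chr7:142577078-142577099 (3p) on the minus strand of GRCm38.p6. Seeds, bases 2 to 8, are in capitals. The mature microRNAs were not measured in these libraries, and the H19 values below count the host transcript.
mmu-miR-675-5p: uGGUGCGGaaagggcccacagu
mmu-miR-675-3p: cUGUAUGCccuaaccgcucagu

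Igf2 had the largest differences of the 6 genes tested in both comparisons of the KEAP1 substitutions. It encodes a growth factor of the embryo that acts through the IGF1 and insulin receptors. Its normalized counts, which are reads divided by a size factor of the library, were 23.8, 26.2, 367 and 62.2 in the 4 controls. In Trsp knockouts they were 35.4, 73.4, 23.6 and 23.6. In KEAP1 mutants they were 412, 555, 64.4 and 609, and in double mutants 867, 834, 355 and 176. Every double mutant was above every Trsp knockout, whereas controls and KEAP1 mutants overlapped, through control replicate 3 and KEAP1 mutant replicate 3. On the deposited scale, log2 of the normalized count plus 4, the means were 6.07 ± 1.73 (SD, n = 4) in controls, 5.29 ± 0.70 in Trsp knockouts, 8.30 ± 1.49 in KEAP1 mutants and 8.86 ± 1.09 in double mutants.

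H19, the maternally expressed noncoding RNA next to Igf2, had its highest mean in double mutants. Its normalized counts were 69.5, 92.2, 413 and 0 in controls, where 0 reads in replicate 4 allow a normalized count of up to 3.73. They were 5.06, 49.8, 110 and 83.7 in Trsp knockouts. They were 304, 282, 95.4 and 201 in KEAP1 mutants and 579, 772, 710 and 177 in double mutants. The 3 highest of the 16 livers were double mutants, and no double mutant overlapped a Trsp knockout. The log2 means were 5.87 ± 2.81 (SD, n = 4), 5.56 ± 1.65, 7.69 ± 0.75 and 8.94 ± 0.98 in controls, Trsp knockouts, KEAP1 mutants and double mutants.

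Afp, the fetal counterpart of albumin in blood plasma, had normalized counts of 43.8, 55.8, 230 and 63.4 in controls. They were 46.6, 24.9, 39.7 and 47.2 in Trsp knockouts. The KEAP1 mutants had 137, 192, 172 and 128, and the double mutants 178, 332, 133 and 59.0. Apart from control replicate 3, each control and each Trsp knockout was below each KEAP1 mutant, and the lowest double mutant, replicate 4, was within the range of the controls. The log2 means were 6.36 ± 1.03 (SD, n = 4) in controls, 5.41 ± 0.39 in Trsp knockouts, 7.32 ± 0.27 in KEAP1 mutants and 7.24 ± 1.0 in double mutants.

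**Figure D1:**
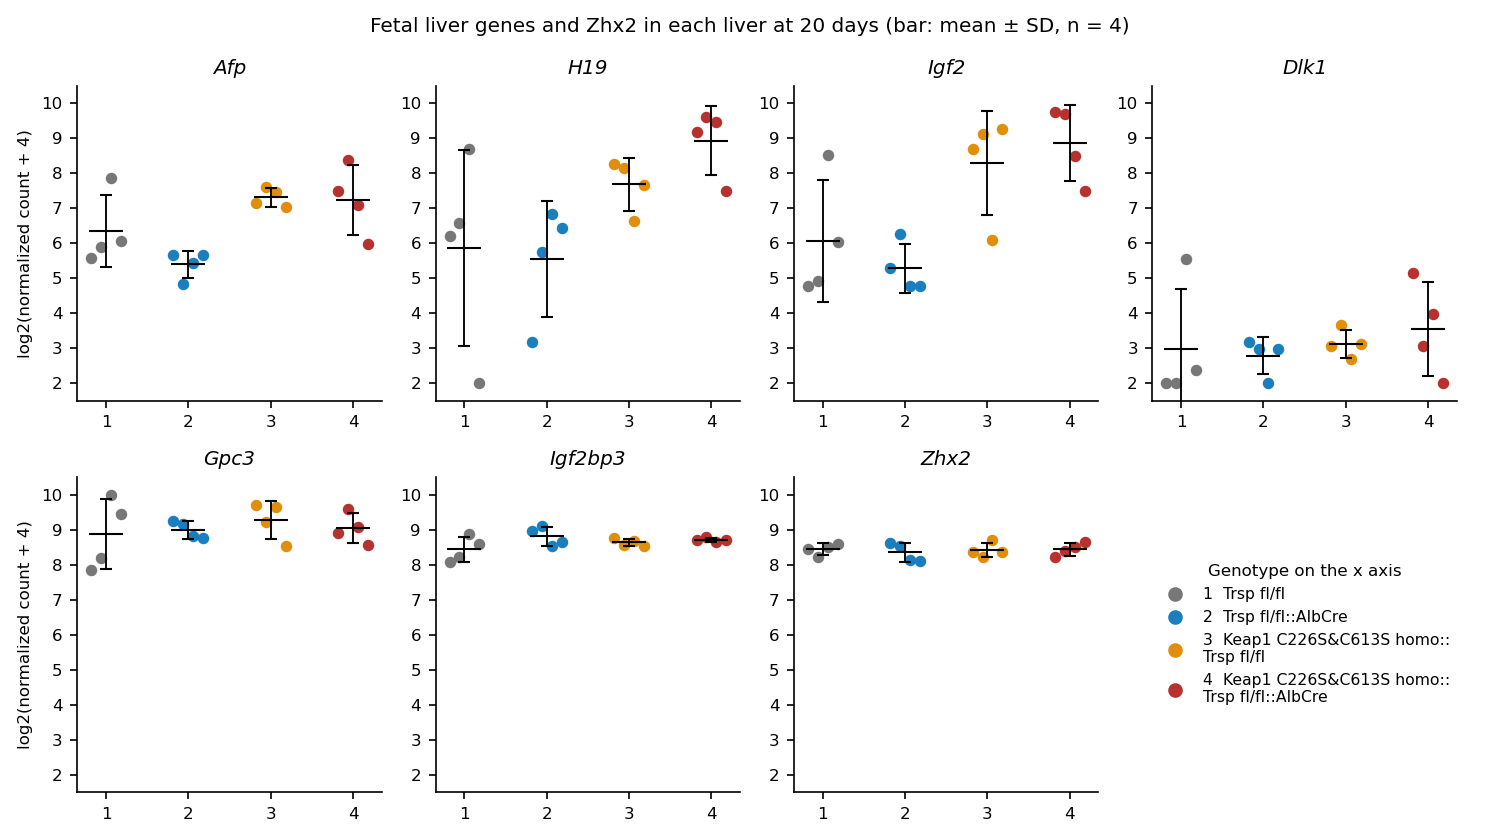
Points give log2 of the normalized count plus 4 for each liver, by genotype on the x axis, and bars give the mean ± SD of 4 mice. Igf2, H19 and Afp lay higher in most KEAP1 mutants and double mutants and in control replicate 3, while Igf2bp3 and Zhx2 stayed between 8.09 and 9.12 in all 16 livers.

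The question for these genes was whether the KEAP1 substitutions, or the loss of selenoproteins in hepatocytes, shifted their residual expression. With Trsp deleted, double mutants were compared with Trsp knockouts. At the thresholds of the study, an absolute log2 fold change over 1 with an adjusted p under 0.01, limma called 0 of the 6 genes, where it called 90 of 15781 genes (0.57%). At an unadjusted p under 0.05 it took 3 of 6 (17.6% of all genes), and at an adjusted p under 0.05 it took 1 of 6 (2.07% of all genes), which was Igf2. The 3 were Igf2, H19 and Afp, and the same 3 were higher in double mutants with no overlap, as were 4.53% of all genes.

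The Igf2 difference was 3.58 on the log2 scale (SE 0.82, 95% interval 1.84 to 5.32, limma adjusted p = 0.0336), and the ratio of mean normalized counts was 14.3. The H19 difference was 3.39 (SE 1.08, limma adjusted p = 0.122), with a ratio of means of 8.99. The Afp difference was 1.83 (SE 0.48, limma adjusted p = 0.0626), with a ratio of 4.43. By limma voom on the recovered reads, none of the 3 passed at 0.05 (adjusted p 0.093 for Igf2, 0.11 for H19 and 0.0937 for Afp). All 4 mice of one genotype were above all 4 of the other for the 3 genes, and the 0.01 threshold was missed by each. Leaving out 1 library at a time moved the adjusted p of Igf2 between 0.0116 and 0.111. It lay over 0.05 without Trsp knockout replicate 1 (0.0689), 3 (0.0918) or 4 (0.0905) and without double mutant replicate 1 (0.111), 2 (0.0892) or 3 (0.0821). Without double mutant replicate 4, the lowest of its group for all 3 genes, Afp passed the thresholds of the study (difference 2.25, adjusted p = 0.0092). The adjusted p of Afp was 0.0198 without control replicate 3, and that of H19 was 0.0306 without control replicate 4. Controls are not in this comparison, so leaving out a control changed only the shared estimate of the spread and left the difference as it was. Without the libraries that stand apart, control replicate 3 and double mutant replicate 1, the Igf2 difference was 3.28 (adjusted p = 0.046), the H19 difference 3.30 (adjusted p = 0.188) and the Afp difference 1.74 (adjusted p = 0.0719).

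Beside these differences, 3 of 6 mesothelial markers were higher in double mutants than in Trsp knockouts (median log2 difference 0.03), as were 6 of 8 stellate and fibroblast markers (0.26), 7 of 9 erythroid markers (0.42), 0 of 8 markers of cycling cells (-0.51), 2 of 7 cholangiocyte markers (-0.14), 4 of 8 endothelial markers (0.07), 5 of 5 megakaryocyte markers (0.88), 2 of 6 Kupffer cell markers (-0.09) and 3 of 8 hepatocyte markers (-0.25). The median of all genes was 0.01. None of these markers passed the thresholds of the study, and their part in the differences of Igf2, H19 and Afp was not tested.

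With Trsp intact, KEAP1 mutants were compared with controls. Here limma called 0 of the 6 genes and 2 of all genes (0.0127%). At an unadjusted p under 0.05 it took 1 of 6, which was Igf2, and 9.07% of all genes. The Igf2 difference was 2.22 on the log2 scale (SE 0.82, limma adjusted p = 0.412), the H19 difference 1.81 (SE 1.08, limma adjusted p = 0.653) and the Afp difference 0.96 (SE 0.48, limma adjusted p = 0.571). None of the 6 was higher in KEAP1 mutants with no overlap, against 3.19% of all genes. Control replicate 3 held the highest control value of all 3 genes, and without it the Igf2 difference was 3.04 (adjusted p = 0.224) and the H19 difference 2.76 (adjusted p = 0.435). The H19 difference was 0.52 without control replicate 4, which had 0 reads, and 3.15 with a constant of 0.1 in place of 4. In the same comparison 0 of 6 mesothelial markers (median -0.90), 3 of 8 stellate and fibroblast markers (-0.14), 3 of 9 erythroid markers (-1.28), 0 of 8 markers of cycling cells (-0.70), 3 of 7 cholangiocyte markers (-0.17), 7 of 8 endothelial markers (0.17), 2 of 5 megakaryocyte markers (-0.06), 6 of 6 Kupffer cell markers (0.41) and 6 of 8 hepatocyte markers (0.14) were higher in KEAP1 mutants, and their part was not tested.

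Averaged over both Trsp states, a comparison added after the data were seen, the KEAP1 substitutions went with a mean Igf2 difference of 2.90 on the log2 scale (SE 0.58, 95% interval 1.67 to 4.13, limma adjusted p = 0.0147). The Afp difference was 1.40 (SE 0.34, limma adjusted p = 0.0461) and the H19 difference 2.60 (SE 0.77, limma adjusted p = 0.0952). No gene of the 6 passed the thresholds of the study, which 0.482% of all genes did, 2 of 6 had an adjusted p under 0.05, against 1.92% of all genes, and 3 of 6 an unadjusted p under 0.05, against 16.1%. Igf2 passed the thresholds without control replicate 3 (3.31, adjusted p = 0.00217), KEAP1 mutant replicate 3 (3.27, adjusted p = 0.00399) or double mutant replicate 4 (3.13, adjusted p = 0.00763). Afp passed them without control replicate 3 (1.65, adjusted p = 0.00558) or double mutant replicate 4 (1.61, adjusted p = 0.00826), and its adjusted p was over 0.05 without any other single library (0.0569 to 0.103). H19 had an adjusted p of 0.0349 without control replicate 3. By limma voom neither Igf2 (adjusted p = 0.0609) nor Afp (0.0713) passed at 0.05, and with no trend in the variance Afp did not (0.0607).

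For the loss of Trsp, none of the 6 genes had an adjusted p under 0.05 in limma. In Trsp knockouts against controls, limma called 0 of 6 genes (0.215% of all genes), and 1 of 6 had an unadjusted p under 0.05 (11% of all genes). That gene was Igf2bp3, with a log2 difference of 0.37 (SE 0.16, limma adjusted p = 0.388). Of the markers, 0 of 6 mesothelial (median -0.52), 0 of 8 stellate and fibroblast (-0.17), 2 of 9 erythroid (-1.14) and 0 of 8 cycling cell (-0.38) were higher. So were 2 of 7 cholangiocyte (-0.03), 6 of 8 endothelial (0.06), 0 of 5 megakaryocyte (-0.67), 2 of 6 Kupffer cell (-0.11) and 3 of 8 hepatocyte markers (-0.07). Their part was not tested. In double mutants against KEAP1 mutants limma called 0 of 6 (0.171% of all genes), with 0 of 6 at an unadjusted p under 0.05 (13.6% of all genes). Here 6 of 6 mesothelial (median 0.18), 5 of 8 stellate and fibroblast (0.19), 6 of 9 erythroid (0.69) and 1 of 8 cycling cell markers (-0.23) were higher. So were 4 of 7 cholangiocyte (0.005), 3 of 8 endothelial (-0.02), 4 of 5 megakaryocyte (0.05), 0 of 6 Kupffer cell (-0.59) and 2 of 8 hepatocyte markers (-0.36). Their part was not tested either. Afp differed by -0.95 (SE 0.48) with normal KEAP1, or -0.44 without control replicate 3, and by -0.07 (SE 0.48) with the substitutions, Igf2 by -0.79 (SE 0.82) and 0.57 (SE 0.82), and H19 by -0.32 (SE 1.08) and 1.26 (SE 1.08). Averaged over both KEAP1 states, again added later, 0 of 6 genes were called (0.266% of all genes) and 0 of 6 had an unadjusted p under 0.05 (13.8%), with limma adjusted p between 0.408 and 0.970.

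A difference between the Trsp knockout effects in the 2 KEAP1 backgrounds was tested as an interaction. limma called 0 of 6 genes (0.057% of all genes), and 0 of 6 had an unadjusted p under 0.05 (10.8% of all genes). The interaction was 1.57 for H19 (95% interval -1.68 to 4.83), 1.35 for Igf2 (-1.11 to 3.82) and 0.87 for Afp (-0.57 to 2.31) on the log2 scale, so the intervals hold both no interaction and a large one. The KEAP1 comparisons with Trsp intact and deleted are the same interaction read the other way, and their Igf2 differences of 2.22 and 3.58 were therefore not shown to differ. Each genotype served in 2 of the 4 comparisons.

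**Figure D2:**
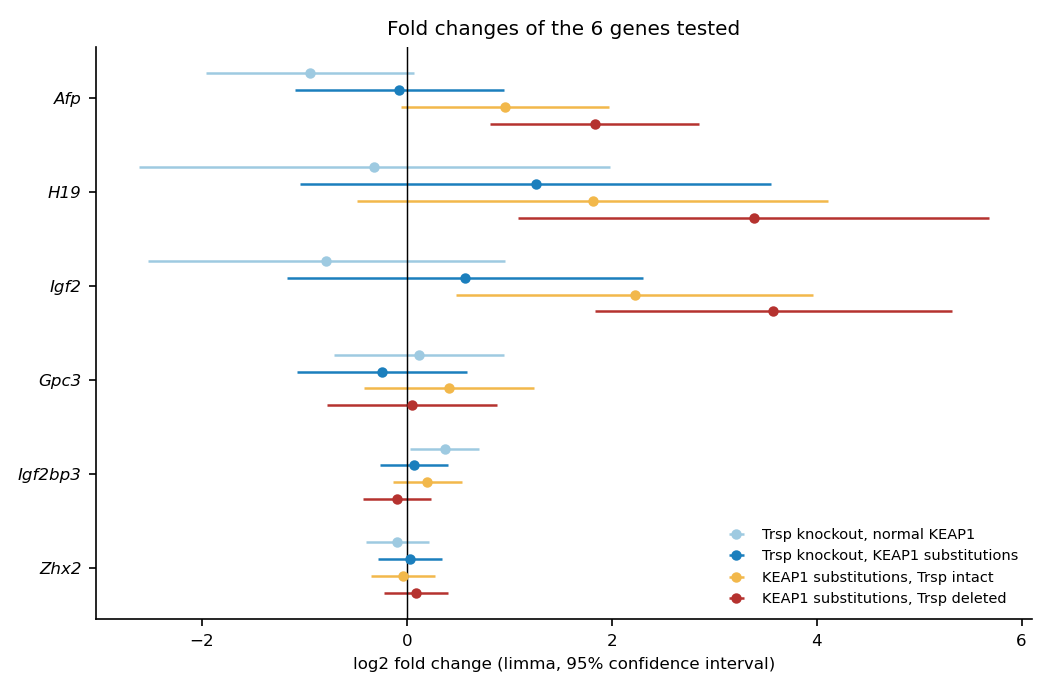
Log2 fold changes from limma with 95% confidence intervals, for the 6 genes tested in the 4 comparisons of 2 genotypes. The intervals of Igf2, H19 and Afp for the KEAP1 substitutions with Trsp deleted lay above 0, while those of Gpc3 and Zhx2 crossed 0 in every comparison.

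Gpc3, a cell surface heparan sulfate proteoglycan that binds growth factors, did not share this order. Its normalized counts were 229, 292, 1019 and 693 in controls and 604, 570, 449 and 429 in Trsp knockouts. They were 842, 601, 797 and 372 in KEAP1 mutants and 479, 774, 543 and 377 in double mutants. The controls alone spanned the values of all other livers, with log2 means of 8.88 ± 1.01 (SD, n = 4), 9.0 ± 0.24, 9.29 ± 0.54 and 9.05 ± 0.43 in the same order of genotypes. The KEAP1 difference was 0.41 (SE 0.39) with Trsp intact, or 0.07 to 0.78 with 1 library left out, and 0.05 (95% interval -0.78 to 0.88) with Trsp deleted. Of the 4 glypicans tested, 3 were higher in double mutants than in Trsp knockouts with a median of 0.09, and none passed at an adjusted p under 0.05.

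Igf2bp3 encodes an RNA-binding protein that takes its name from Igf2 mRNA and is a target of the let-7 microRNAs. Its normalized counts were 268, 298, 465 and 381 in controls and 493, 551, 368 and 399 in Trsp knockouts. They were 432, 379, 410 and 372 in KEAP1 mutants and 416, 442, 397 and 414 in double mutants. The genotypes overlapped throughout, and the double mutants were the most alike, with a log2 SD of 0.06 (n = 4) against 0.35 in controls. The difference between double mutants and Trsp knockouts was -0.10 (95% interval -0.43 to 0.23).

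Zhx2, the zinc-finger homeobox repressor of Afp and H19 that explains the high adult Afp of some mouse strains, was the steadiest. Its normalized counts were 344, 297, 365 and 387 in controls and 395, 371, 280 and 273 in Trsp knockouts. They were 326, 297, 412 and 328 in KEAP1 mutants and 296, 332, 361 and 402 in double mutants. No genotype lay apart, and across 16 livers the highest value was 1.51 times the lowest. The log2 difference was 0.09 (95% interval -0.22 to 0.40) between double mutants and Trsp knockouts and -0.03 (-0.35 to 0.28) between KEAP1 mutants and controls. Averaged over both Trsp states it was 0.03 (95% interval -0.19 to 0.25), while those of Afp and H19 were 1.40 and 2.60.

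Dlk1, an imprinted membrane protein of the Notch ligand family that marks hepatoblasts, was at the edge of detection, with 0 to 46 reads per library and 10 or more in 3 of 16. Its normalized counts were 0, 0, 43.1 and 1.24 in controls and 5.06, 3.93, 0 and 3.94 in Trsp knockouts. They were 4.35, 8.63, 2.45 and 4.78 in KEAP1 mutants and 31.7, 4.41, 11.9 and 0 in double mutants. A count of 0 allows up to 2.85 to 3.41 normalized counts in these libraries. Control replicate 3 and double mutant replicate 1, which stand apart above, held the 2 highest values. Its log2 means differed by 0.77 between double mutants and Trsp knockouts (2-sided exact permutation test, p = 0.371) and by 0.15 between KEAP1 mutants and controls (exact p = 0.971), where 4 mice against 4 allow no p below 0.0286. No difference in Dlk1 was detected with so few reads and 4 mice per genotype, and the parts of depth and of the spread between mice were not told apart.

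The genes also differed in how much mice of 1 genotype varied. The SD within genotypes, on the log2 scale, was 1.74 for H19, 1.31 for Igf2, 0.76 for Afp and 0.62 for Gpc3, against a median of 0.30 over all genes tested. It was 0.23 for Igf2bp3 and 0.21 for Zhx2. H19 and Igf2 were above 99.6% and 98.8% of all genes by this measure, and Zhx2 above 29.2%. All tested genes were ranked together whatever their level, and genes of like level were not compared apart. The SD of H19 includes control replicate 4, with 0 reads, and Trsp knockout replicate 1, with 5.

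With genotype means subtracted, control replicate 3 was 1 of the 2 mice farthest from the median for Afp, Igf2 and Gpc3. For H19 the 2 farthest were control replicate 4 and Trsp knockout replicate 1. Ranked over the 16 livers, control replicate 3 was the highest for Gpc3 and Dlk1, the second for Afp, the fourth for H19 and the sixth for Igf2, while the other 3 controls held ranks from 9 to 16 for Afp, H19 and Igf2. It also held the highest stellate and mesothelial marker sums given above, and their part in these values was not tested. At the other end, double mutant replicate 4 ranked 10, 8 and 8 for Afp, H19 and Igf2, and held the lowest mesothelial sum (136) of the 16 libraries. It also held the lowest Kupffer cell (2877) and cycling cell (387) sums and the highest cholangiocyte sum (997). Control replicate 1, with a mesothelial sum of 469, ranked 14, 13 and 14 for Afp, H19 and Igf2.

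With each genotype mean subtracted, 2 of the 15 pairs of the 6 genes were correlated across the 16 mice at an adjusted p under 0.05 (100000 permutations within genotypes, 2-sided, adjusted over 15 pairs). Gpc3 and Igf2bp3 had r = 0.83 (permutation p = 0.00036, adjusted p = 0.0054) and Spearman rho = 0.84 (permutation p = 0.00099, adjusted p = 0.0148). Without the 2 mice farthest from the median of Gpc3, r was 0.67. Afp and Gpc3 had r = 0.69 (permutation p = 0.00658, adjusted p = 0.0493) and rho = 0.48 (permutation p = 0.102, adjusted p = 0.291), and r was 0.52 without the 2 mice farthest in Afp and 0.48 without control replicate 3. With each mouse left out in turn, the Gpc3 and Igf2bp3 pair passed in 16 of 16 fits (r 0.73 to 0.88) and the Afp and Gpc3 pair in 6 of 16. H19 and Igf2 had r = 0.38 within genotypes (permutation p = 0.299, adjusted p = 0.408) and rho = 0.13 (permutation p = 0.660, adjusted p = 0.761). Zhx2 had r = -0.57 with H19 (permutation p = 0.0223, adjusted p = 0.0932) and rho = -0.67 (permutation p = 0.0196, adjusted p = 0.147), and r = -0.18 with Afp (permutation p = 0.50, adjusted p = 0.624) with rho = -0.28 (permutation p = 0.327, adjusted p = 0.490). The H19 and Zhx2 relation did not pass the correction over all mice; it did without control replicate 3 (r = -0.76, permutation test, adjusted p = 0.009) and without control replicate 2 (r = -0.56, permutation test, adjusted p = 0.0225).

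**Figure D3:**
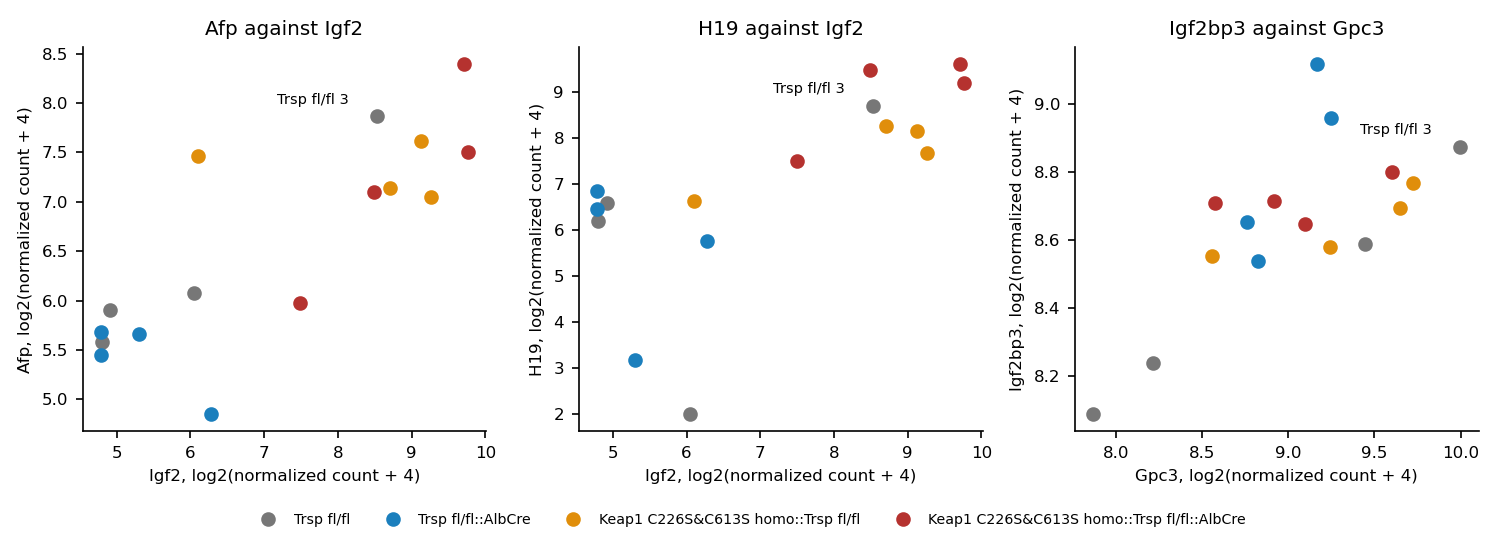
Each point is 1 of 16 livers, with log2 of the normalized count plus 4 of a gene on each axis and the genotype in colour; genotype means are not subtracted. Control replicate 3 lay among the KEAP1 mutants and double mutants for Igf2, Afp and H19, and the lowest values of both Gpc3 and Igf2bp3 were those of 2 controls.

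Over all 16 livers, with genotype means kept, the tested genes whose values were most like those of a gene described here were found by Pearson's r on the log2 scale, as a description over libraries that share genotypes. For Igf2 they were Vill (0.89), Ebf1 (0.86) and Git2 (0.84). For H19 they were Zbtb9 (0.83), Tle3 (0.82) and Zfp521 (0.81). For Igf2bp3 they were Adcy6 (0.90), Unc93a2 (0.88) and Cbx7 (0.86), and for Zhx2 they were Gm47905 (0.86), Tmcc1 (0.84) and Plekha8 (0.84). No gene of the 8 was among the nearest 3 of another.

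The wider pathways of these genes were described by lists. Of 22 genes tested in an imprinted network of growth regulators, 17 were higher and 5 lower in double mutants than in Trsp knockouts (median log2 difference 0.41, all genes 0.01), and 13 were higher and 9 lower in KEAP1 mutants than in controls (median 0.11, all genes -0.01). None was called, and Igf2 was the 1 gene with an adjusted p under 0.05 in the first. Meg3, the maternally expressed noncoding RNA of the Dlk1 domain, differed by 1.23 in the first comparison (limma adjusted p = 0.153). Impact, which encodes a regulator of the kinase GCN2, was the 1 gene of the list with an adjusted p under 0.05 in each Trsp comparison. It rose by 0.84 in Trsp knockouts against controls (limma adjusted p = 0.014), where 0.558% of all genes had such a p, and by 0.84 in double mutants against KEAP1 mutants (limma adjusted p = 0.0157), where 0.798% did; both were under the fold limit. Rian, from the Dlk1 domain, had the list's largest difference between Trsp knockouts and controls, -1.04 (limma adjusted p = 0.520).

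In the LIN28 and let-7 axis, which times the switch from fetal to adult expression in many tissues, 8 of 13 genes tested were higher in double mutants than in Trsp knockouts (median 0.08). Hmga1, a chromatin architectural factor repressed by let-7, fell by 0.90 on the log2 scale in that comparison at an adjusted p of 0.0371 by limma, under the fold limit of the study. Hmga2 differed by 0.08 (limma adjusted p = 0.894). Myc, the growth-promoting transcription factor, had differences of 2.18 between Trsp knockouts and controls (limma adjusted p = 0.125) and -1.64 between double mutants and Trsp knockouts (limma adjusted p = 0.142). Igf2bp2, a paralog of Igf2bp3, differed by 1.17 between double mutants and KEAP1 mutants (limma adjusted p = 0.608) and by -0.87 between KEAP1 mutants and controls (limma adjusted p = 0.799).

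Among 11 tested targets of ZHX2 and ZBTB20, 3 were higher and 8 lower in double mutants than in Trsp knockouts (median -0.92), where the 3 higher ones included Afp and H19. The list was not split by the direction of regulation, so these counts do not measure repression. Cyp2a5, the coumarin hydroxylase, was the 1 gene called, against 0.57% of all genes, and fell by 3.88 (SE 0.59, limma adjusted p = 0.00222), from a log2 mean of 15.77 to 11.89; it is also a known NRF2 target. Between Trsp knockouts and controls it differed by 2.53 (limma adjusted p = 0.0777). Mup11, a major urinary protein, differed by -2.08 between KEAP1 mutants and controls (limma adjusted p = 0.412), and Mup3 by -2.12 between double mutants and KEAP1 mutants (limma adjusted p = 0.464). Major urinary protein genes are near-identical copies, so their reads may be split among them.

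Of 21 repressors and hepatocyte transcription factors, 8 were higher and 13 lower in double mutants than in Trsp knockouts (median -0.09), and none was called. Zbtb20, the zinc-finger repressor of Afp, differed by -0.73 (limma adjusted p = 0.0759) in that comparison. Cebpa, a factor of hepatocyte maturation, differed by 0.97 between KEAP1 mutants and controls (limma adjusted p = 0.0711). Nr1i3, the nuclear receptor CAR, differed by -1.17 both between double mutants and Trsp knockouts (limma adjusted p = 0.169) and between double mutants and KEAP1 mutants (limma adjusted p = 0.236). Onecut1, also called HNF6, had the list's largest difference between Trsp knockouts and controls, 0.90 (limma adjusted p = 0.557).

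In the albumin gene cluster, where Afp lies beside Alb, Afm and Gc, Afp was the 1 gene of 4 that was higher in double mutants than in Trsp knockouts. Alb differed by -0.40 (limma adjusted p = 0.758), and the median of the cluster was -0.32. Between double mutants and KEAP1 mutants all 4 were lower, and Afm, which encodes the vitamin E carrier afamin, differed by -0.77 (limma adjusted p = 0.107).

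Genes of the adult hepatocyte had mostly lower means in double mutants than in either single genotype, though few passed the test. Of 27 tested, 2 were higher and 25 lower in double mutants than in Trsp knockouts (median -0.51), 4 of the lower ones had an adjusted p under 0.05 (2.07% of all genes, in either direction) and 1 was called (0.57%). The called gene was Ugt2b1, a glucuronosyltransferase, which fell by 2.12 (SE 0.30, limma adjusted p = 0.00122). The other 3 were Tdo2, which breaks down tryptophan (-1.26, adjusted p = 0.0117), the glycerol channel Aqp9 (-0.93, adjusted p = 0.0162) and the cytochrome P450 Cyp1a2 (-1.68, adjusted p = 0.0409). In the same comparison the hepatocyte markers had a median of -0.25, and double mutant replicate 1 held the lowest hepatocyte sum (1105072). Their part in the differences of the adult genes was not tested. Aqp9 was the 1 gene called between double mutants and KEAP1 mutants (0.171% of all genes), where it fell by 1.18 (SE 0.19, limma adjusted p = 0.00709) and 20 of 27 genes were lower. Between KEAP1 mutants and controls 14 of 27 were higher (median 0.07) and none had an adjusted p under 0.05. Scd1, a lipogenic desaturase, had the largest differences of that comparison, -3.89 (limma adjusted p = 0.253), and of double mutants against KEAP1 mutants, 2.40 (limma adjusted p = 0.343). Serpina1e had that of Trsp knockouts against controls, -1.49 (limma adjusted p = 0.538).

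The remaining lists held no gene with an adjusted p under 0.05. Of 16 hepatoblast and progenitor genes, 10 were higher in double mutants than in Trsp knockouts (median 0.18), with Bex1 the most different at 1.28 (limma adjusted p = 0.264). Of 11 fetal isozymes of metabolism, 8 were higher (median 0.23), with Ldhb the most different at 0.74 (limma adjusted p = 0.577). In KEAP1 mutants against controls 12 of the 16 and 9 of the 11 were lower instead (medians -0.24 and -0.15). In double mutants against KEAP1 mutants 12 of the 16 and 9 of the 11 were higher (medians 0.46 and 0.14). Bex1 was again the most different progenitor gene there, at 2.40 (limma adjusted p = 0.0708), from a log2 mean of 3.58 to 5.98. In Trsp knockouts against controls 12 of the 16 and 8 of the 11 were lower (medians -0.07 and -0.28).

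**Figure D4:**
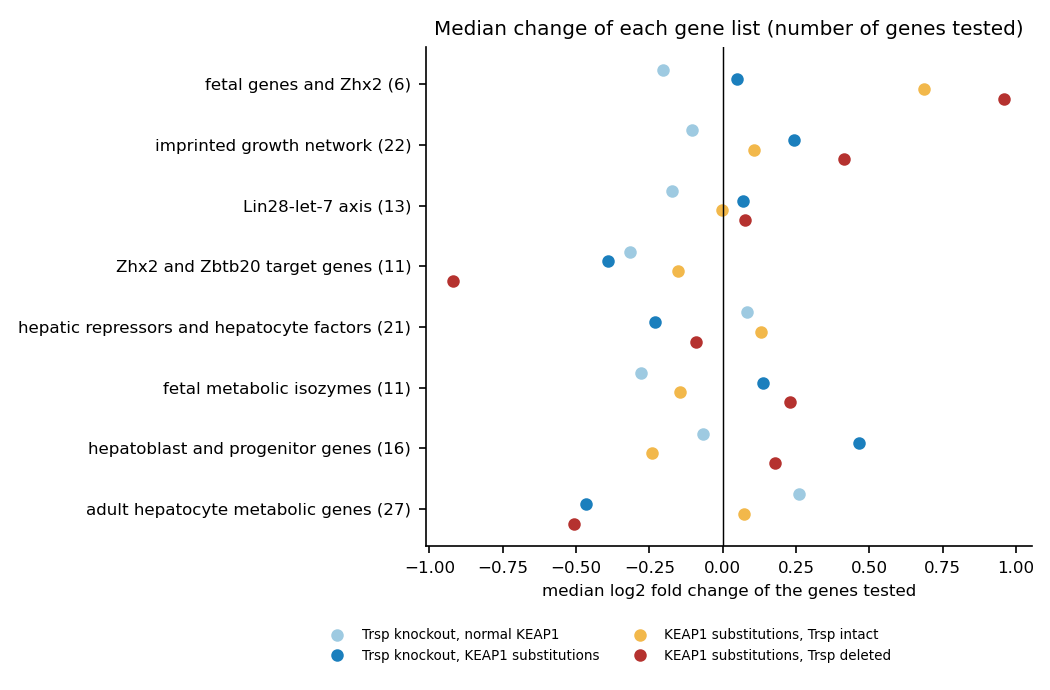
Median log2 fold change of the genes tested in each list, with their number in brackets, for the 4 comparisons of 2 genotypes. For the KEAP1 substitutions with Trsp deleted, the median of the fetal genes and Zhx2 was 0.96 and that of the adult hepatocyte genes -0.51. The 0.96 lies between Igf2 (3.58), H19 (3.39) and Afp (1.83) on one side and Zhx2 (0.09), Gpc3 (0.05) and Igf2bp3 (-0.10) on the other, and is near no single gene.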

How the data were processed

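The authors quantified reads with Salmon (named per the labels; the methods give GENCODE mouse annotation and the iDEP platform) and deposited log2 values per gene and library. The values are log2 of a normalized count plus 4: all values of up to 20 reads were whole multiples of 1 read within 0.1 read (100%), so reads and size factors were recovered. The 369 rows without a gene identifier, with at most 0.627% of a library's reads, were left out of tests. Columns were mapped to mice by title.

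Genes that reached 10 normalized counts in 4 or more libraries were fitted in all 16 libraries, with a mean per genotype and no covariate (limma 3.58.1, trend, R 4.3.3; Benjamini-Hochberg over 15781 genes). On simulated data for double mutants against Trsp knockouts, over 15781 genes, 92 of 100 genes changed by 3 on the log2 scale and 76 of 100 changed by 1.5 were called, and 1 unchanged gene was. The changed genes were a random draw of tested genes above a low mean. All genes tested had a median SD within genotypes of 0.30, against 1.74 for H19, 1.31 for Igf2 and 0.76 for Afp. These rates therefore do not apply to Igf2, H19 and Afp. Correlations and exact tests used scipy. Library sizes set counting error only, which was not estimated apart from the spread between mice. Read counts were lowest for Dlk1, with 0 to 46 per library.

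The genes, lists and tests were chosen with earlier results of these data known. Named genes are the 8 symbols, the genes called in a list, the gene with the largest difference of a list in a comparison and the 3 genes nearest to each tested one, which are not reported here for Afp and Gpc3; Meg3, Hmga1, Hmga2, Zbtb20, Alb, Impact, Tdo2 and Cyp1a2 were named after their values were seen. Alternatives were other constants, filters, scalings and fits, and each library left out.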

Additional observations from a re-analysis of the deposited data

Results flagged for a closer look

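In groups of 4 mice, a liver far from the other 3 was looked for by Dixon's test in each of the 28 combinations of gene and genotype, where chance gives about 1 in 20, or 1.4 here. There were 2, both for Dlk1. Control replicate 3 had a log2 value of 5.56 against 2 to 2.39 in the other controls, and Trsp knockout replicate 3 had 2, the value of 0 reads, against 2.99 to 3.18. The latter is a matter of a few reads.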

How the results depend on the processing

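No other constant, filter, scaling or fit, nor a replicate block, let limma call any of the 6 genes in any of the 5 comparisons (0 in each). For the KEAP1 substitutions with Trsp deleted, 1 gene passed at an adjusted p under 0.05 in the main fit, with or without the fold limit. At 0.05 the count was 2 with library totals for scaling, 0 with limma voom and 0 with a replicate block. Leaving out 1 library gave 0 to 1 genes at the thresholds of the study and 0 to 2 at 0.05. Averaged over the Trsp states, 2 genes passed at 0.05 in the main fit, with or without the fold limit. At 0.05 the count was 0 with limma voom, 1 with no trend in the variance and 1 with a replicate block. At the thresholds of the study it was 1 without the 2 libraries that stand apart and 0 to 2 without 1 library. At 0.05 it was 1 to 3 without 1 library. Correlated pairs numbered 1 with a constant of 1, 1 by Spearman's rho, and 1 to 3 without 1 mouse. The cause of these changes was not tested. Counts over all genes ran from 46 to 178 for the KEAP1 substitutions with Trsp deleted, 14 to 42 for the Trsp knockout with substitutions, 1 to 5 for the KEAP1 substitutions with Trsp intact, 0 to 14 for the interaction and 28 to 37 for the Trsp knockout with normal KEAP1.

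Replicate numbers did not pair the mice: deviations of same-numbered mice had r between -0.32 and 0.31 (median -0.04). With a replicate block, 3 pairs were correlated: Gpc3 and Igf2bp3 again (permutation test, adjusted p = 0.0124), H19 and Zhx2 (r = -0.67, adjusted p = 0.0353) and Afp and Igf2 (r = 0.66, adjusted p = 0.0353), while Afp and Gpc3 did not pass (adjusted p = 0.111). Also with the block, 0 of the 6 genes were called in each comparison, and the adjusted p of Igf2 for the KEAP1 substitutions with Trsp deleted was 0.0716. Averaged over the Trsp states it was 0.0452, and that of Afp 0.0705.

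Signs turned only in differences that passed no test. For the Trsp knockout with normal KEAP1, H19 was 0.79, 0.24 and 0.024 with constants of 0.1, 0.5 and 1, and 0.63 without the 2 libraries that stand apart, where Igf2 was 0.034. Without 1 library, H19 ran from -1.61 to 0.63, Igf2 from -1.21 to 0.034 and Gpc3 from -0.22 to 0.49. For the Trsp knockout with substitutions, Afp was 0.055 with library totals and 0.057 with limma voom; without 1 library Afp ran from -0.45 to 0.35, Igf2 from -0.16 to 1.03 and Zhx2 from -0.040 to 0.13. For the KEAP1 substitutions with Trsp intact, Zhx2 ran from -0.13 to 0.027. With Trsp deleted, Igf2bp3 was 0.028 with library totals and 0.036 with limma voom and ran from -0.19 to 0.00094 without 1 library, and Gpc3 ran from -0.14 to 0.21. Averaged over the Trsp states, Igf2bp3 ran from -0.0083 to 0.12 and Zhx2 from -0.020 to 0.073. For the averaged Trsp knockout, Gpc3 was 0.0015, 0.00066 and 0.15, and Zhx2 0.034, 0.027 and 0.019, with library totals, limma voom and without the 2 libraries that stand apart, where Igf2 was 0.15. Without 1 library, H19 ran from -0.18 to 0.94, Igf2 from -0.48 to 0.30, Gpc3 from -0.23 to 0.12 and Zhx2 from -0.076 to 0.017.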
